A study of Mus musculus with 11 samples.

Results

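The regions described here are the centromere-proximal ends of the mouse autosomes: the stretch from 3 to 13 Mb on each of chromosomes 1 to 19 (mm9), where the centromere lies at the low-coordinate end. They were defined by position alone, as 200 bins of 50 kb on each chromosome, though earlier results of these data were known. Together they are 3800 of the 48313 autosomal bins that follow the first 3 Mb of each chromosome (7.87%). Of these 3800 bins, 3502 held at least 1 restriction fragment end that the ensemble map used, and 298 held none. The empty bins lay mostly on chromosomes 7 and 14, where 111 and 91 of 200 bins held an end, and the first end on chromosome 14 was at 6058547. These stretches, called proximal windows below, were set against size-matched mid windows, 10 Mb centred on the middle of each chromosome, with 3758 of 3800 bins in use. The last 10 Mb of each chromosome, called end windows, served as a further comparison.

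All maps came from CD4+ Th1 helper T cells, which were raised from the spleen (C57BL/6, male mice) with anti-CD3 and then IL-2. Hi-C, which joins and sequences DNA ends that lie near each other in the nucleus, was done on 10 single cells, on a population (the ensemble) and, in a file pooled by the authors, on many single cells. Chromatin was cut with Bgl II in 9 cells and in the ensemble, and with Dpn II in cell 8, which is given as a value beside the 9. No other treatment or genotype was compared, and the labels name no separate animals or cultures. Each p below therefore concerns the mean difference within these cells only. The files hold contacts and no expression, so the Th1 label could not be checked against markers.

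Mouse autosomes are telocentric: the centromere sits at the very start of the chromosome, next to long arrays of satellite repeats that reference assemblies leave out. In interphase nuclei the repeats of several chromosomes gather in chromocentres, dense bodies of heterochromatin that are a hallmark of mouse cells. A polarised, or Rabl, arrangement is the related large-scale pattern in which centromeres lie towards one side of the nucleus and the far ends of chromosomes towards the other. The comparisons ask how far contacts of the sequence next to the centromeres show either pattern in single cells and in the populations.

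The 9 Bgl II cells held 11156 to 30665 contacts, cell 8 held 12225, the pool 2294791 and the ensemble 51834382. Contacts between chromosomes (trans) made up 6.96% to 25.9% of contacts in the 9 cells, 22.5% in cell 8, 20.2% in the pooled file and 50.7% in the ensemble. The pool includes the 9 Bgl II cells, so it is used below without their contacts and called the pool remainder, or the pool (2119836 contacts, 20.4% trans). Both copies of an autosome are read as one, and no contact was listed more than once within a single cell or the pool. No mm9 genome or annotation was used, so no genes are named in the windows.

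Proximal windows of different chromosomes met more often than their contact numbers gave in both populations, and varied between single cells. The measure is observed over expected trans contacts, where the expected number takes the contacts of each pair of autosomes and the share of each chromosome's trans ends that lie in its window. A value of 1 means that windows meet as often as their contact numbers alone give. The ensemble had 161826 contacts between proximal windows against 125203 expected, a ratio of 1.29 (95% exact Poisson interval 1.29 to 1.30, which here and below covers counting error only). The pool remainder had 4825 against 3025 expected, a ratio of 1.59 (1.55 to 1.64). Between mid windows the ratios were near 1, at 1.01 in the ensemble (1.01 to 1.02) and 1.06 in the pool (1.02 to 1.11).

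In single cells the ratio between proximal windows was highest in cell 1, where 25 contacts were seen against 11.4 expected (2.19, interval 1.42 to 3.24). Of these 25 contacts, 10 lay on a single chromosome pair, 11 and 19 (0.177 expected), so the cell 1 ratio rests largely on that pair. Cell 5 had 51 against 27.5 (1.85, 1.38 to 2.44) and cell 7 had 21 against 13.6 (1.55, 0.959 to 2.37). These 3 cells stood above the others, and only in cells 1 and 5 did the interval lie above 1.

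Cell 10 followed with 1.30, cell 4 with 1.18, cell 6 with 1.01, cell 3 with 0.997, cell 2 with 0.982 and cell 9 with 0.901, and cell 8 had 0.978. Over the 9 cells the mean was 1.33 ± 0.449 between proximal windows and 0.955 ± 0.373 between mid windows (SD, n = 9 each). The cells thus spread from slightly below the expected number to well above it, with 6 of 9 above 1 between proximal windows and 3 of 9 between mid windows. Summed over the 9 cells, 247 contacts joined proximal windows against 193 expected (1.28, interval 1.12 to 1.45), and 176 joined mid windows against 162 (1.09, 0.932 to 1.26).

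Within a cell, the log2 ratio between proximal windows exceeded that between mid windows by 0.48 ± 0.74 (SD, n = 9) and in 7 of 9 cells, a difference that did not pass the exact sign-flip permutation test (two-sided, p = 0.0898, adjusted over the 4 tests of this kind 0.12). The lowest difference was -0.57, in cell 2, and the highest 1.95, in cell 1; it was 0.13 in cell 8, 0.59 in the pool remainder and 0.35 in the ensemble. Cell 2 had 67 contacts between mid windows against 45.7 expected (1.47). Without it the mean was 0.61 and the adjusted p of the exact test 0.0208. Leaving out the lowest of the 9 values can only raise the mean, so this does not change the call. Without cell 1, the highest, the mean was 0.295 (adjusted p = 0.203, exact test). Windows of 5 Mb (1.20, adjusted p = 0.0208, exact test) and of 20 Mb (0.44, adjusted p = 0.0156, exact test) passed. The remaining 8 of 10 alternative settings did not.

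**Figure D1:**
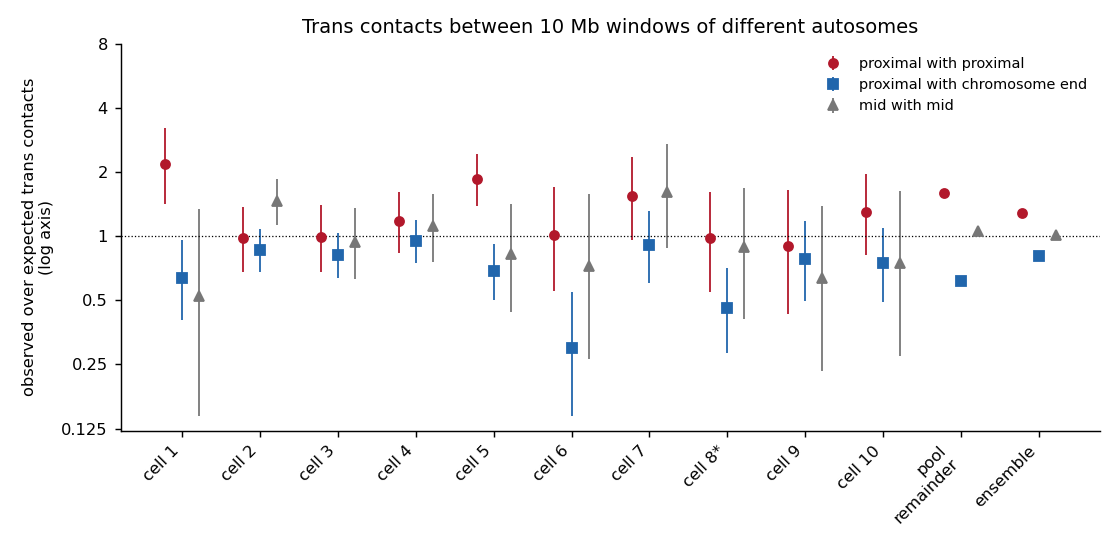
Observed over expected trans contacts (vertical axis, log scale) between proximal windows of different autosomes (red circles), between proximal and end windows (blue squares) and between mid windows (grey triangles), for 10 single cells, the pool remainder and the ensemble; bars are 95% exact Poisson intervals and cell 8 (asterisk) was cut with Dpn II. Blue squares lie below 1 in all 12 maps, red circles reach 2.19 in cell 1, and grey triangles reach 1.61 in cell 7 and 1.47 in cell 2.

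Polarity was read from contacts between opposite ends of different chromosomes. Contacts between a proximal window and the end window of another chromosome were rarer than expected in every map. The ratio was lowest in cell 6, with 10 contacts against 33.5 expected (0.298, interval 0.143 to 0.548), had a median of 0.782 over the 9 cells and was highest in cell 4, with 75 against 78.7 (0.953, 0.749 to 1.19). It was 0.461 in cell 8 (0.282 to 0.713), 0.617 in the pool remainder (0.599 to 0.636) and 0.811 in the ensemble (0.808 to 0.814). The mean of 0.744 ± 0.195 (SD, n = 9) lay below the 0.972 ± 0.141 between proximal and mid windows of different chromosomes, and 0 of 9 cells were above 1.

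The ratio between proximal windows exceeded that between proximal and end windows in 9 of 9 cells, by 0.82 ± 0.65 on the log2 scale (SD, n = 9). This passed the exact sign-flip permutation test (p = 0.00391, the smallest that 9 cells allow; adjusted 0.00781). The difference was 1.73 in cell 1, 1.71 in cell 6 and 1.42 in cell 5, and between 0.19 and 0.78 in the other 6 cells. It was 1.07 in cell 8, 1.37 in the pool remainder and 0.67 in the ensemble. With the first 1 Mb of every window left out the difference was 0.71, 8 of 9 cells were above 0 and the adjusted p of the exact test was 0.0703, which missed the threshold of 0.05.

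End windows met each other as well. Their ratio was 1.39 ± 0.388 (SD, n = 9) in the 9 cells, with 7 of 9 above 1, where proximal windows had 1.33 ± 0.449 and 6 of 9. It was 1.42 in the pool remainder and 1.22 in the ensemble, against 1.59 and 1.29 between proximal windows. Ratios above 1 were thus measured at both ends of the chromosomes, and the difference between the 2 kinds of end was not tested.

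The change with position was graded along the chromosome. Each chromosome was divided into 10 equal parts, numbered from the centromere, and trans partners of the proximal windows were counted in each. In the ensemble the ratio was 1.28 in part 1, 1.17 in part 2, 1.03 in part 5, 0.937 in part 7 and 0.800 in part 10, and it fell at 9 of 9 steps. The pool remainder had 1.58 in part 1, 1.33 in part 2, 1.03 in part 5, 0.841 in part 7 and 0.591 in part 10, again falling at 9 of 9 steps. The 9 cells summed went the same way, with 1.33 (interval 1.23 to 1.44) in part 1, 1.02 (0.931 to 1.12) in part 5 and 0.773 (0.703 to 0.849) in part 10, and 8 of 9 steps fell. All 3 of these curves crossed 1 between parts 5 and 6. Over the 10 parts together observed and expected numbers are equal by construction. A falling curve therefore has to cross 1, and an excess near the centromere goes with a deficit elsewhere.

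Single cells held few contacts per part and were more uneven, with 4 to 7 falling steps of 9 each. In part 1 the lowest cell had 0.942, the median was 1.31 and the highest 1.92, and 8 of 9 cells were above 1. In part 10 the lowest had 0.330, the median was 0.768 and the highest 0.961, and 0 of 9 were above 1. The ranges over cells of parts 1 and 10 thus overlapped slightly, while those of parts 2 and 10 and of parts 2 and 9 did not. In cell 8 the ratio was 1.23 in part 1 and 0.484 in part 10.

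**Figure D2:**
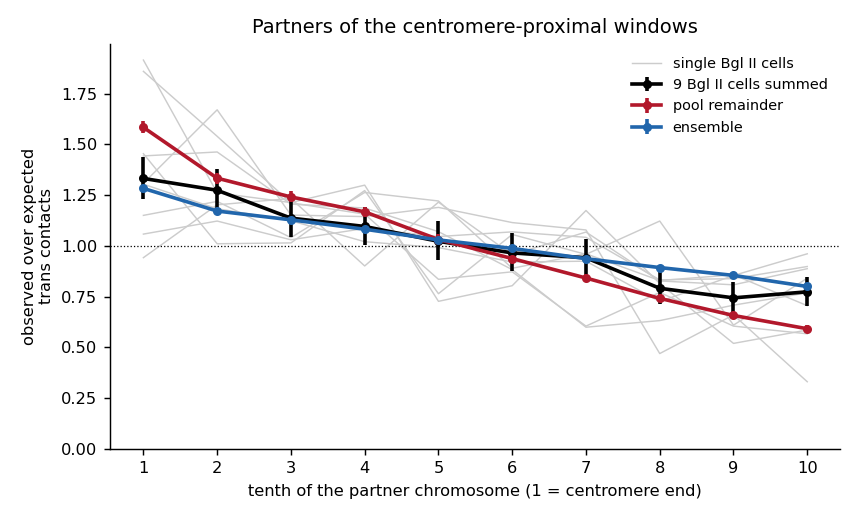
Observed over expected trans contacts of the proximal windows (vertical axis) by the part of the partner chromosome, in 10 equal parts counted from the centromere (horizontal axis), for the 9 Bgl II cells (thin grey lines), their sum (black), the pool remainder (red) and the ensemble (blue); bars are 95% exact Poisson intervals. The ensemble line runs from 1.28 in part 1 to 0.800 in part 10 and the pool line from 1.58 to 0.591, and both cross 1 between parts 5 and 6.

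With both ends of a trans contact placed on this scale, contacts gathered where both lay at the same relative position near an end. In the ensemble the ratio was 1.27 for part 1 with part 1, 1.24 for part 10 with part 10 and 0.805 for part 1 with part 10. The same ratios were 1.58, 1.48 and 0.598 in the pool remainder, and in the 9 cells summed 1.35, 1.43 and 0.756. The middle of the chromosomes showed little of this, with 1.02, 1.01 and 0.935 for part 5 with part 5 in the ensemble, the pool and the summed cells.

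As a description of each map, the relative positions of both ends of a trans contact were correlated across contacts. The coefficient was above 0 in 9 of 9 cells, with a mean of 0.169 ± 0.100 (SD, n = 9). It was 0.286 in cell 6, 0.267 in cell 1, 0.260 in each of cells 5 and 10, 0.161 in cell 9, 0.101 in cell 4, 0.0921 in cell 7, 0.0528 in cell 3 and 0.0407 in cell 2. Cell 8 had 0.108, the pool remainder 0.184 over 414159 autosomal trans contacts, and the ensemble 0.0808 over 25229000. Contacts of a cell are grouped and share fragments, so no p is given. The 3 cells with the highest trans share, cells 2, 4 and 3, were among the 4 lowest values, and the ensemble, with the highest trans share of all maps, lay below the pool; the part of trans share in this was not tested.

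**Figure D3:**
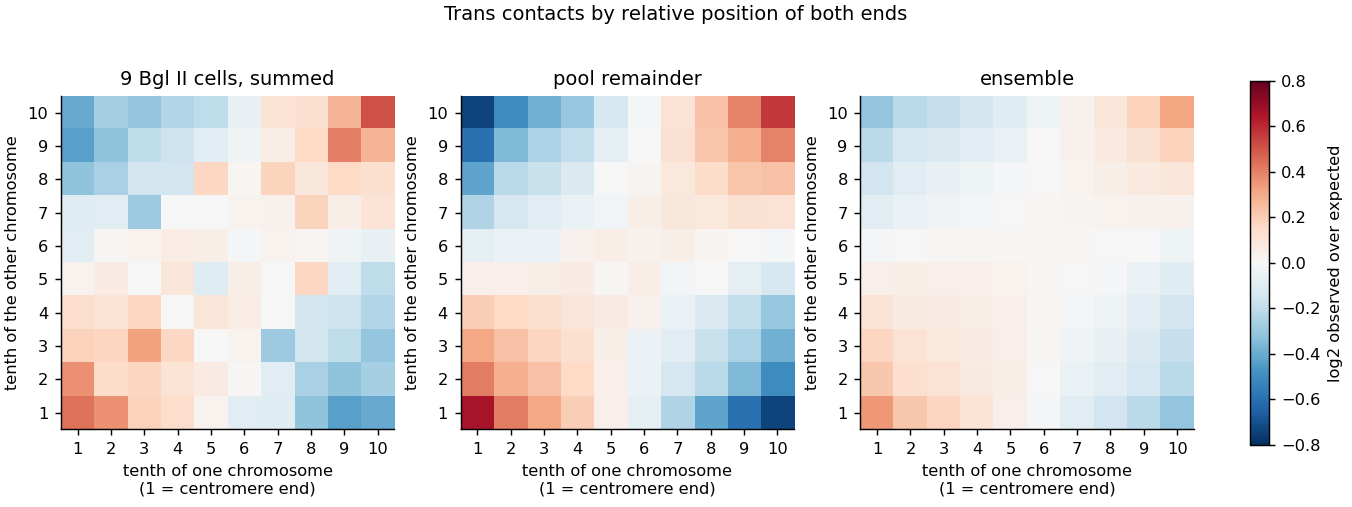
Log2 of observed over expected autosomal trans contacts (colour) by the relative positions of both ends, in 10 equal parts counted from the centromere, for the 9 Bgl II cells summed, the pool remainder and the ensemble. Red corners mark part 1 with part 1 and part 10 with part 10 (ratios of 1.58 and 1.48 in the pool), and blue corners mark part 1 with part 10 (0.598 in the pool, 0.805 in the ensemble).

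Trans contacts also made up more of all contacts in proximal windows than in mid windows. In the 9 cells, 21.1% ± 7.64 of contact ends in proximal windows belonged to trans contacts, against 16.3% ± 7.18 in mid windows (SD, n = 9 each). Cell by cell, cell 5 had 26.5% in proximal and 16.7% in mid windows, cell 10 had 24.0% and 14.9%, and cell 7 had 17.9% and 11.5%. At the other end of the range, cell 2 had 28.2% and 26.6%, and cell 1 had 7.27% and 5.35%. Between cells the shares overlapped widely, but within each of the 9 cells the proximal share was the higher.

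The proximal share was higher by 4.85 points ± 3.01 (SD, n = 9), with cell 2 lowest at 1.67 and cell 5 highest at 9.83, which passed the exact sign-flip permutation test (p = 0.00391, the smallest that 9 cells allow; adjusted 0.00781). Cell 8 had a difference of 7.80 points (26.3% in proximal and 18.5% in mid windows), the pool remainder 6.55 (25.1% and 18.5%) and the ensemble 5.71 (55.1% and 49.4%). A proximal window has cis neighbours on 1 side and a mid window on both; with cis contacts limited to the window and the 20 Mb beyond its distal edge, an alternative chosen after these values were seen, the difference was 4.17 points (27.0% ± 10.2 and 22.9% ± 10.1, SD, n = 9; 9 of 9 cells; adjusted p = 0.00781, exact test). Under the same limit cell 2 had the lowest difference, 0.274 points, the pool remainder had 5.20 and the ensemble 1.96 (65.1% and 63.2%). End windows, with neighbours on 1 side too, had 21.9% ± 7.0 (SD, n = 9), and the mean difference, proximal minus end, was -0.765 points with 4 of 9 cells above 0 (adjusted p = 0.328, exact test).

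Trans ends were also more numerous per restriction site. The ensemble had 39.3 trans ends per fragment end in proximal windows and 35.8 in mid windows, with contact ends of all kinds at 71.3 and 72.6. Trans values of the pool remainder were 0.781 and 0.581. The windows differed little in all contacts per fragment end and more in trans contacts.

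By chromosome, 18 of 19 proximal windows had a higher trans share than their own chromosome in the ensemble, against 2 of 19 mid windows and 16 of 19 end windows; of all 230 tiles of 10 Mb, 41.3% did. The pool remainder gave 18, 1 and 17 of 19, with 43.5% of all tiles. Proximal windows ranged from 50.5% to 58.7% in the ensemble with a median of 55.1%, and mid windows from 44.5% to 56.4% with a median of 49.1%. The proximal window was above the mid window of the same chromosome on 18 of 19 chromosomes in each of these maps; the exception was chromosome 16 in the ensemble and chromosome 9 in the pool.

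In the ensemble the window farthest above its own chromosome was that of chromosome 1, with a trans share of 56.8% where the whole chromosome had 48.0% (pool remainder 23.3% and 17.1%). Chromosome 11 followed with 58.2% and 50.2% (pool 34.0% and 23.6%), and chromosome 5 with 55.6% and 48.4% (pool 23.8% and 20.1%). The pool remainder had another order, with chromosome 11 first, then chromosome 7 (10.2 points; 30.1% and 19.9%), chromosome 19 (6.31 points) and chromosome 1 (6.24 points). In the chromosome 7 window only 111 of 200 bins held a fragment end. The chromosome 11 value rested in part on 2 bins described below: without them its window was 2.56 points above its chromosome in the ensemble, where it had been 7.98 points above, and 3.57 in the pool.

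Chromosome 16 stood at the other end, the only proximal window of the ensemble below its own chromosome, with 51.5% and 53.9%. It had 22.2% and 22.2% in the pool remainder, and in the 9 cells summed 15.7% and 19.4%. Chromosome 17 was 0.794 points above its chromosome in the ensemble (54.7% and 53.9%) and chromosome 8 was 1.34 points above (50.5% and 49.1%). The window of chromosome 14, with less than 50% of its bins in use, was also 1.34 points above in the ensemble, and differed by -0.0923 points in the pool. These low windows differed from their chromosomes by a few points at most, in a range over all 19 windows of -2.45 to 8.78.

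**Figure D4:**
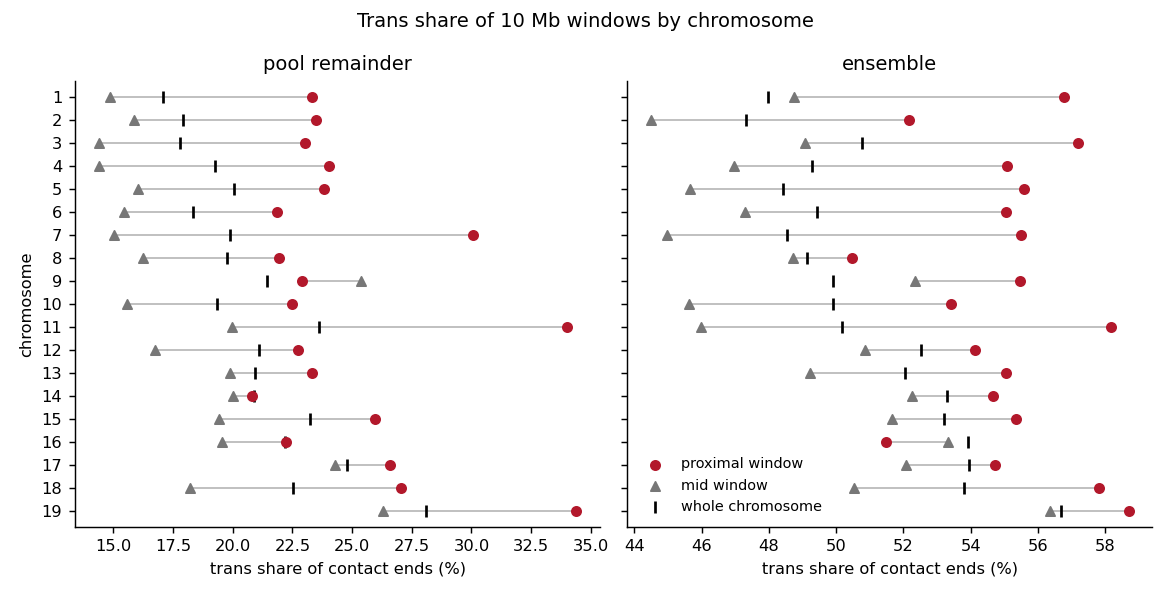
Trans share of contact ends (horizontal axis, percent, not starting at 0) of the proximal window (red circle), the mid window (grey triangle) and the whole chromosome (black bar) for chromosomes 1 to 19 (vertical axis), in the pool remainder (left) and the ensemble (right). The red circle lies right of the grey triangle on 18 of 19 chromosomes in each map, the exceptions being chromosome 9 on the left and chromosome 16 on the right.

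Within the windows, trans share was highest next to the centromere. Over the 19 chromosomes, the first 1 Mb had 61.9% trans ends in the ensemble, the next 1 Mb 55.8% and the last 1 Mb of the windows 52.7%. The pool remainder had 35.5%, 26.8% and 22.5% at the same places. Farther along, at 20 and 40 Mb from the window start, the ensemble had 52.2% and 50.5%, and the pool 21.8% and 19.6%. Without the 2 bins of chromosome 11 the first 1 Mb had 57.5% in the ensemble and 29.8% in the pool. The mapped sequence starts there on most chromosomes, so cis neighbours lie mainly on 1 side. What part this had in the higher share was not tested.

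Among sub-windows of 1 Mb, the first of chromosome 11 had the highest trans share of the ensemble, 75.9%, and 62.4% in the pool remainder. Without its 2 dense bins it had 56.3% and 35.2%. Chromosome 7 from 11000001 followed with 62.4% (pool 30.3%) and the first of chromosome 3 with 61.7% (pool 24.7%). The chromosome 7 sub-window held 207 fragment ends, and in the ensemble no fragment end lay between 8000001 and 10000000 on that chromosome. What part this gap in near cis partners had in its share was not tested. The 3 lowest all lay on chromosome 8, starting at 12000001 (47.3%; pool 22.9%), 9000001 (47.7%; pool 18.7%) and 11000001 (47.9%; pool 20.7%).

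The 2 bins singled out on chromosome 11 were the first of its window, up to 3050000, and the next, from 3050001 to 3100000, at the edge of the assembled sequence. They held 93656 ensemble contact ends on 45 fragment ends, or 2081 per fragment end, where the median over 50 kb autosomal bins was 69.3. They had 27.9 and 31.0 times that median, and no other autosomal bin had more than 10 times. Of their contact ends 89.7% were trans, and 13.4% of their trans partners lay in other proximal windows, against 9.22% for the rest of the chromosome 11 window. They made up 2.31% of all trans ends of the proximal windows in the ensemble.

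In the pool remainder the 2 bins held 3089 of 4239672 contact ends (0.0729%), 68.6 per fragment end. In the 9 cells they held 0 of 350050 ends, and cell 8 had 0 as well. If ends were independent draws, a count of 0 would allow about 3 counts, or 0.000857%. Ends of the same cell are not independent, so this figure is a description. The pool share was above it, and what sets the cells apart from the pool here was not tested. Without these bins the ratio between proximal windows was 1.27 in the ensemble and 1.57 in the pool remainder.

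Meeting of proximal windows was spread over nearly all chromosome pairs in the populations. In the ensemble 163 pairs (95.3% of all pairs) had a ratio above 1, where 51.9% of all pairs of 10 Mb tiles on different autosomes did, as did 108 pairs of mid windows. In the pool remainder 157 pairs (91.8%) did, with 45.5% of all tile pairs and 92 pairs of mid windows. In both maps 153 pairs were above 1. The median pair had 1.31 in the ensemble (range 0.755 to 1.78) and 1.58 in the pool (0.297 to 3.44). Pair values of both maps had a Pearson r of 0.554 and a Spearman rho of 0.535 over all pairs of the 19 autosomes, given as a description. Both maps share the genome's base composition and mappability but no contacts of the 9 cells. Both also hold the dense bins of chromosome 11, which were kept here and raised its pairs in both maps. Their part in these coefficients was not tested.

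The highest pair of the ensemble was chromosomes 7 and 11, with a ratio of 1.78 (interval 1.68 to 1.88) and 2.0 in the pool remainder. Chromosomes 8 and 11 had 1.71 (pool 2.11), 3 and 9 had 1.69 (1.55 to 1.84; pool 2.27), 9 and 11 had 1.63 (pool 1.90) and 11 and 18 had 1.63 (pool 1.84). The 4 pairs with chromosome 11 rested partly on its dense bins. Without them the same 4 pairs had 1.44, 1.39, 1.17 and 1.30 in the ensemble and 1.01, 1.84, 0.901 and 1.16 in the pool, while chromosomes 3 and 9 kept 1.70 and 2.30, then the highest ratio of the ensemble.

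All 5 lowest pairs of the ensemble held chromosome 19. Chromosomes 9 and 19 had 0.755 (interval 0.700 to 0.814; pool 0.466, 11 contacts) and 14 and 19 had 0.770 (0.701 to 0.844; pool 1.09). Chromosomes 6 and 19 had 0.931 (pool 0.764), 5 and 19 had 0.933 (pool 0.710) and 15 and 19 had 0.971 (pool 1.30). The pair of 3 and 19 was the lowest of the pool remainder, at 0.297 with 5 contacts (interval 0.0964 to 0.693), and had 0.972 in the ensemble.

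Against the other 18 proximal windows together, that of chromosome 19 had the lowest ratio of both maps, 1.05 in the ensemble and 1.08 in the pool remainder, where the medians over 19 windows were 1.31 and 1.66. Chromosome 19 is the shortest autosome, and its window held 21.4% of its trans ends in the ensemble and 19.2% in the pool, against medians of 6.97% and 8.08%. This share enters the expected number directly, and its part in the low ratio was not tested. Over the 19 chromosomes the ratio and this share had a Pearson r of -0.561 in the ensemble and -0.597 in the pool, and without chromosome 19 it was -0.0560 and -0.148, so the relation rests on that chromosome. The highest ratio was that of chromosome 11 in the ensemble (1.47) and of chromosome 5 in the pool (1.91). Without the dense bins chromosome 11 had 1.32 in the ensemble, below chromosomes 17 (1.37), 7 (1.37) and 13 (1.34), while chromosome 5 kept the highest ratio of the pool (1.85).

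Ribosomal RNA gene arrays are known near the centromeres of mouse chromosomes 12, 15, 16, 18 and 19, and nucleoli form around such arrays. The 10 pairs among these 5 chromosomes together had a ratio of 1.10 in the ensemble (8 of 10 above 1), against 1.31 for the other 161 pairs. They had 1.42 in the pool remainder (9 of 10 above 1), against 1.61. In neither map was the ratio of these pairs above that of the others. Of the 10 pairs, 4 involve chromosome 19, which had the lowest window ratio of both maps. The other pairs include those of chromosome 11 with its dense bins. What part these 2 chromosomes had in the difference was not tested.

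**Figure D5:**
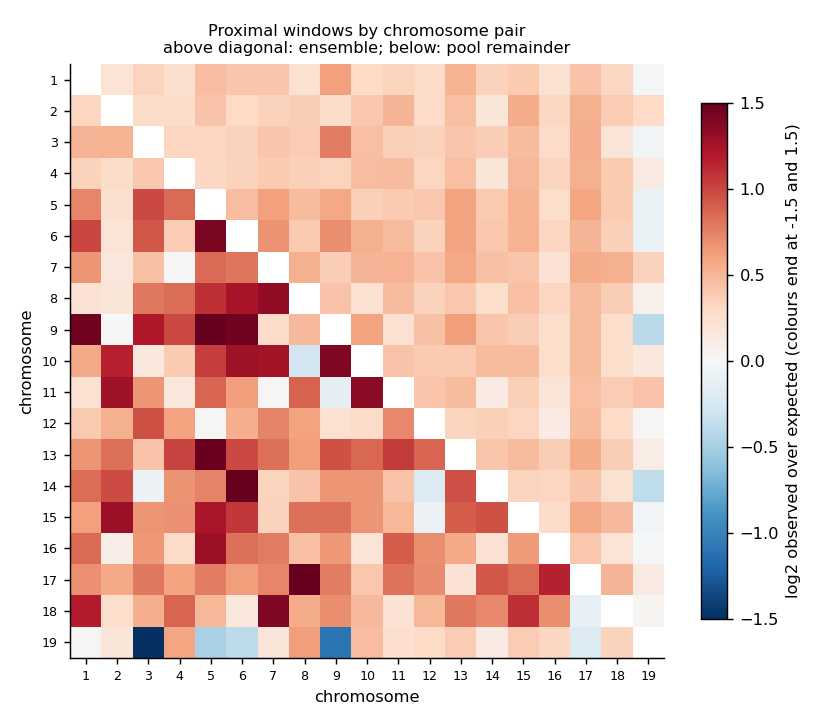
Log2 of observed over expected trans contacts between proximal windows for each pair of chromosomes (colour), in the ensemble above the diagonal and in the pool remainder below it, without the 2 dense bins of chromosome 11; colours end at -1.5 and 1.5. Most squares are red (163 pairs above 1 in the ensemble and 159 in the pool), and in the ensemble the blue ones all lie in the column of chromosome 19.

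The ratio also varied with distance from the centromere within the windows. Cut into 2.5 Mb stretches, the first with the first had a ratio of 1.48 in the ensemble and 1.99 in the pool remainder (1.39 and 1.93 without the dense bins). The fourth with the fourth had 1.22 and 1.43. The eighth with the eighth, 17.5 to 20 Mb from the window start, had 1.13 and 1.29. The order was not strict. The second with the second had 1.20 in the ensemble, below the third with 1.32, and in the pool the fifth and sixth, with 1.65 and 1.58, were above the fourth.

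The same order of ratios was measured in both chromatin classes. The ensemble's first eigenvector split 1 Mb bins into class 1, richer in fragment ends, and class 2, and 37.6% of classed bins in proximal windows and 29.8% in mid windows were class 1. Between proximal windows the ratio in the pool remainder was 1.71 for class 1 with class 1, 1.58 for class 2 with class 2 and 1.54 for class 1 with class 2. Between proximal and end windows it was 0.684, 0.574 and 0.618, and between mid windows 1.02, 1.08 and 1.07. The ensemble gave 1.38, 1.27 and 1.26 between proximal windows, 0.805, 0.788 and 0.842 between proximal and end windows and 1.01, 1.02 and 1.02 between mid windows. Every class combination was above 1 between proximal windows and below 1 between proximal and end windows in both maps.

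In single cells, contacts between proximal windows linked chromosomes into groups. The 9 cells had a median of 25 such contacts (lowest 10 in cell 9, highest 51 in cell 5) on a median of 18 chromosome pairs (9 to 31). Between mid windows the median was 13 contacts (4 to 67) on 10 pairs (4 to 37). Proximal contacts joined 11 to 18 chromosomes, with a median of 18, and the largest linked group held 6 to 18 of them, with a median of 15. Cells 2, 4 and 5 each had 18 chromosomes in 1 group. Mid contacts joined a median of 14 chromosomes (6 to 19), with a median largest group of 7. These counts follow the number of contacts, which was higher in proximal windows in 8 of 9 cells, and were not compared at equal numbers.

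The leading pairs differed between most cells, and chromosomes 11 and 19 led, alone or tied, in both cell 1 and cell 3. In cell 1, 10 of its 25 proximal contacts joined chromosomes 11 and 19, where 0.177 were expected. In cell 5, chromosomes 1 and 11 led with 8 (0.825 expected), and in cell 4 chromosomes 11 and 12 with 6 (0.808 expected). Cell 3 had 5 contacts each for chromosomes 1 and 18 and for 11 and 19.

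Cell 6 had 4 contacts for chromosomes 15 and 17 (0.169 expected), cell 7 had 3 for 13 and 15 (0.207), cell 10 had 3 for 2 and 19 (0.412) and cell 2 had 3 each for 9 and 12 and for 15 and 18. Cell 8 had 7 of its 15 contacts on chromosomes 2 and 9 (0.112 expected). In cell 9 all 10 contacts lay on different pairs. Since these pairs were picked for their counts, the expected numbers are a description.

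Few pairs recurred between cells. Over all 10 cells, 114 pairs of autosomes had at least 1 proximal contact in some cell and 13 had one in 3 or more cells, against 96 and 7 for mid windows. These counts also follow the number of contacts in each cell and were not compared at equal numbers, so they are a description. Chromosomes 6 and 8 and chromosomes 15 and 17 had a proximal contact in 4 cells, more than any other proximal pair, and no pair had one in 5. Their ratios were 1.31 and 1.48 in the ensemble and 2.34 and 1.78 in the pool remainder. Chromosomes 11 and 19, with 16 contacts in 3 cells, had 1.21 and 0.972. Without the dense bins of chromosome 11 this pair had 1.35 and 1.19.

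In cis, the windows differed less. Of cis contacts inside a window or between it and the next 20 Mb on its distal side, 31.2% ± 6.67 left the window in proximal windows and 29.8% ± 5.30 in mid windows (SD, n = 9 each). The difference of 1.40 points ± 3.02 had the same sign in 6 of 9 cells, from -2.64 in cell 5 to 7.82 in cell 4, and did not pass the exact sign-flip permutation test (p = 0.203, adjusted 0.203). Cell 8 had 5.61 points, the pool remainder 2.46 and the ensemble 0.532. With cells this uneven, a difference of 1 or 2 points could not be told from the spread between them.

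By distance from the distal edge the maps gave a mixed order. In the pool remainder, for 100 contacts inside a proximal window 16.5 reached the first 5 Mb beyond it and 9.53 the stretch from 10 to 15 Mb, against 13.7 and 7.90 for mid windows. From 5 to 10 Mb the values were 9.01 and 9.17. The ensemble had 22.2 for proximal and 22.3 for mid windows in the first 5 Mb, 13.6 and 15.8 from 5 to 10 Mb, and 15.7 and 13.0 from 10 to 15 Mb. Proximal windows were thus not above mid windows at every distance in either map.

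Contacts between a proximal window and the end of its own chromosome were few. They made up 1.89% ± 1.06 of the windows' cis contacts (SD, n = 9), lowest in cell 1 (8 of 2727, 0.293%) and highest in cell 4 (48 of 1493, 3.22%). Cell 8 had 2.23%, the pool remainder 1.47% and the ensemble 2.99%. Cis contacts of proximal windows stayed inside the window in 42.5% ± 7.99 of cases (SD, n = 9), least in cell 4 (28.9%) and most in cell 10 (58.2%), while 38.5% ± 7.46 reached beyond the next 20 Mb. The corresponding shares were 46.4% and 33.5% in the pool remainder, and 32.8% and 45.5% in the ensemble.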

How the data were processed

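The deposited files hold genomic positions, 1 line per contact with chromosome and coordinate of both ends, per the file headers. Coordinates are on mm9, per the submitters' processing notes. An aligner, the read filters and the number of pooled cells were not given in the sources used here. Positions were used as other, unscaled values, with no read counts. Mitochondrial ends occurred in 3 contacts of cell 8, which were dropped. No deposited column was left without a sample.

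Tables were computed in Python 3.11.15 (numpy 2.4.6, pandas 2.3.3, exact intervals from scipy 1.17.1) and figures drawn with matplotlib 3.10.9. For each map, expected contacts between windows were the contacts of each autosome pair times the share of each chromosome's autosomal trans ends in its window. Log2 ratios had 0.5 added to observed and expected. Trans share counted partners on autosomes and X. Differences within each of the 9 Bgl II cells were tested by flipping signs in all ways (exact, two-sided, Benjamini-Hochberg over 4 tests, threshold 0.05). For the log2 differences to mid and end windows only, the procedure was also tested on simulated data. Those contacts were drawn independently from the ensemble's margins and lack the grouping of contacts in real cells. Contacts per cell (11156 to 30665) set the precision, and intervals are exact Poisson at 95%. Classes came from the first eigenvector of the ensemble at 1 Mb, balanced for 50 iterations and signed by fragment-end density.

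The windows, comparisons and lists were chosen with earlier results of these data known. Named regions were the 3 highest and 3 lowest windows by ensemble trans share relative to their chromosome, the 5 highest and 5 lowest pairs, the 3 highest and 3 lowest sub-windows of 1 Mb with at least 10 fragment ends, and each cell's leading pair. Dense bins (over 10 times the median contact ends per fragment end), recurring pairs, chromosome 14 and 16 details and the highest windows of the pool remainder and without dense bins were singled out after their values were seen. Alternatives were other window widths, starts and comparison windows, other expected counts, contacts within 1 Mb counted once, other contact filters, all 10 cells and each cell left out.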

Additional observations from a re-analysis of the deposited data

Results flagged for a closer look

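A single cell stood far from the rest in 4 of 25 measures taken over the Bgl II cells. The cutoff flags about 1 in 20 where values are normal and independent. Several of these measures are small counts or derive from each other, so the number flagged is a description. Cell 6 had the lowest ratio between proximal and end windows, 0.298, while the other 8 cells had 0.639 to 0.953. Cell 1 had 2.5 contacts per chromosome pair between proximal windows, against 1 to 1.65 in the others, and 10 of its 25 contacts lay on chromosomes 11 and 19. In the mid windows, cell 10 had the lowest share of cis contacts leaving the window, 18.1%, where the others had 28.0% to 35.7%, and its proximal share of 19.4% was the lowest of the 9 cells as well. Cell 2 had 8 contacts between the mid windows of chromosomes 3 and 9, where no other cell had more than 3 on a pair of mid windows. No explanation of these values was tested.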

How the results depend on the processing

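Each of the 4 tested differences was recomputed under alternative settings (10 for proximal windows against mid windows, 9 for trans share, 5 for distal cis contacts and 8 for proximal against end windows), of which 8, 8, 5 and 7 kept the direction and the side of the threshold. These counts leave out the setting without the dense bins, where the 9 cells have no contact end, so that it could not change their values. The exceptions were the log2 difference to mid windows with windows of 5 Mb (1.20) and of 20 Mb (0.443), which passed; the log2 difference to end windows with the first 1 Mb left out (0.708), which did not; and trans share against end windows in place of mid windows, a comparison added after the data were seen, which turned to -0.765 points. The cause of these changes was not tested. Leaving out each cell in turn gave 0.295 to 0.610 for proximal against mid windows (adjusted p 0.0208 to 0.203, exact tests), 4.23 to 5.25 points for trans share, 0.599 to 1.91 points for distal cis contacts and 0.705 to 0.898 for proximal against end windows. Without cell 2 the log2 difference to mid windows passed, and without any other cell it did not. In the populations the ratio between proximal windows lay between 1.24 and 1.34 in the ensemble and was above 1 and at most 1.74 in the pool remainder under every alternative run for these maps, and that between proximal and end windows stayed below 1 in both. All 4 tests were paired within the cell, since both kinds of window were measured in the same cell. Depth limits the single cells, where 4 to 67 contacts joined mid windows and 10 to 51 joined proximal windows.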

Other observations

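The X chromosome lies outside the rule for the windows. Its stretch from 3 to 13 Mb met the autosomal proximal windows 222 times in the pool remainder, against 120 expected, a ratio of 1.85 (95% exact Poisson interval 1.61 to 2.11, counting error only). In the ensemble the ratio was 1.22 (1.19 to 1.25). Single cells had 0 to 2 such contacts each, with no more than 3.28 expected in any cell, so at this depth they gave no usable ratio.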
